A study of Rattus norvegicus with 6 samples.

Results

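The genes described are 10 tetraspanins of mast cell and leukocyte membranes, taken by exact symbol from a table of 18286 genes: Cd9, Cd37, Cd53, Cd63, Cd81, Cd82, Cd151, Tspan3, Tspan4 and Tspan8. Of these, 8 had a row and values, while Cd53 and Tspan8 had none under those symbols or under their RefSeq synonyms and were not analysed here. The table holds RNA-seq profiles of RBL-2H3, rat basophilic leukemia cells that serve as a mast cell model because they bear the high-affinity receptor for IgE. The groups were 3 libraries of cells treated with DHC (dihydrocoumarin, a plant lactone) and 3 control libraries whose treatment label is none. One protocol is given for both groups, with 12 h of sensitization by 50 ng/ml anti-DNP IgE and 4 h of stimulation by 100 ng/ml DNP-HSA, and the labels do not say whether the control cells went through it. Neither a dose nor a duration of DHC is stated. The labels do not state that replicate libraries stem from separate cultures. The p-values therefore rest on a spread between libraries that may be technical.

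Tetraspanins cross the membrane as 4 linked helices and gather partner proteins, such as integrins, immunoglobulin-family receptors and proteases, into small membrane domains. They also shape endosomes, secretory granules and the vesicles that cells release. In mast cells and basophils CD63 lies in the granule membrane and reaches the cell surface when granules fuse with it, which is why it is used as a marker of degranulation, and antibodies against CD81 and CD63 have been used on RBL-2H3 cells to dampen secretion through the IgE receptor.

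With DHC, Tspan3 and Tspan4 rose and Cd151 fell, each by a modest amount. Cd63, by far the most abundant of the tetraspanins, stood slightly lower with DHC and did not pass the test. Cd9, Cd37, Cd81 and Cd82 did not pass it either. So 3 of the 8 members measured passed, 2 higher and 1 lower, at an adjusted p below 0.05 (limma on log2(RPKM + 1), adjusted over all 10667 genes tested), and in this comparison 34.5% of all genes tested passed, 18.4% higher and 16.1% lower. The members' share is near that background and is no result about tetraspanins as a family. The median log2 fold change was −0.06 over the 8 members and 0.05 over all genes tested. RPKM are reads per kilobase of exon scaled to the library total, so levels can be compared between genes. When libraries were scaled by trimmed means, 2 members were higher and 2 lower, and over all genes 1285 were higher and 2114 lower instead of 1968 and 1717.

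Before the values, the promoter sequences of 3 genes are shown, because these are the most abundant member and the members with the lowest p in each direction that have an entry. RefSeq promoter windows of the build GRCr8, from 250 bases before to 50 after the annotated start, matched 8 of the 10 symbols, all but Cd82 and Tspan4. Capitals mark matches on either strand to TGATAA or AGATAA (cores bound by GATA factors), CACGTG (an E-box), TGACTCA (an AP-1 site), GGGCGG (a GC box), CCAAT and TATAAA. No marked matches overlap each other in the windows shown, which lie at chr7:1921894-1922193 on the plus strand (Cd63), chr1:205994050-205994349 on the plus strand (Cd151) and chr8:65465795-65466094 on the minus strand (Tspan3).
Cd63: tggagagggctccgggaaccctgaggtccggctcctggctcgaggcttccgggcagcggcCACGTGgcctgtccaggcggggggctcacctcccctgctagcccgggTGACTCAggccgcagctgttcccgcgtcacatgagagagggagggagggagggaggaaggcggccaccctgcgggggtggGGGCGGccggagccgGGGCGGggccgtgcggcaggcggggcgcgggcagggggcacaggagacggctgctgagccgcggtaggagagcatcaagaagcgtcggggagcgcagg
Cd151: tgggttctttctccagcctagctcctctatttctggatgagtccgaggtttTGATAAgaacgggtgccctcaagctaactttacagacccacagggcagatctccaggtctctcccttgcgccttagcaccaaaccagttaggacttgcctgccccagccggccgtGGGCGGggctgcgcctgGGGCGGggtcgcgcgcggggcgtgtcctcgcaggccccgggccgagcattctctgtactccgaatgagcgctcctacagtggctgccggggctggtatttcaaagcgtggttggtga
Tspan3: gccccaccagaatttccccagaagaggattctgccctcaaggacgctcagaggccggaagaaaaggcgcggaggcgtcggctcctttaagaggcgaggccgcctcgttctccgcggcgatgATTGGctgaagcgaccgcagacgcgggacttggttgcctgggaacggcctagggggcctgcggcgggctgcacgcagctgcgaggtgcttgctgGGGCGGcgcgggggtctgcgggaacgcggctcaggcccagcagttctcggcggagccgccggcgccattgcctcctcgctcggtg

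The Cd63 window held 1 E-box, 1 AP-1 match and 2 GC boxes. The Cd151 window held 1 TGATAA and 2 GC boxes. The Tspan3 window held 1 GC box and 1 CCAAT box, read on the opposite strand. Among 27457 rat promoter windows of the same length, CACGTG occurred in 6.65%, TGACTCA in 4.53%, TGATAA in 8.89%, AGATAA in 11.3%, GGGCGG in 34.9%, CCAAT in 37.7% and TATAAA in 14.3%. The windows of the most abundant members were rich in G and C, with 75.0% for Cd63, 69.3% for Tspan3 and 68.7% for Cd81, against a median of 52.3% over all windows. The windows of Cd9 and Cd151, at lower levels, had 64.0% and 61.7%, and that of Cd37, the member with the lowest level, had 57.3%. Those of Cd53 and Tspan8, which had no row and so no measured level, had 40.7% and 48.3%. Whether this share goes with the level of a gene was not tested. These matches describe the letters in the windows and no binding was measured.

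Cd63 encodes the granule and lysosome tetraspanin. It had 337, 337 and 354 RPKM in the DHC libraries, against 369, 368 and 369 RPKM in the control libraries. All 3 DHC values lay below all 3 control values, and the DHC libraries differed from each other more than the control libraries did. The means were 342 ± 9.78 and 369 ± 0.453 RPKM (SD, n = 3 each), a ratio of 0.928 and a log2 fold change of −0.11 (95% interval −0.20 to −0.02, limma adjusted p = 0.0649). The interval for this gene alone lies below 0, but the difference did not pass after adjustment over all genes. It passed when libraries were scaled by trimmed means (−0.17, limma adjusted p = 0.0156) or by median-of-ratios factors (−0.16, 0.0184). Between 11206 and 14148 reads per library stand behind these values. On the rat build Rnor_6.0, to which all gene coordinates given for single genes refer, the gene spans chromosome 7, 3320103 to 3335582, on the plus strand. Its level ranked 249 among the 18286 genes. Of the summed RPKM of the 8 members, Cd63 made up 82.0%, 81.3% and 82.7% in the DHC libraries and 83.8%, 83.2% and 84.7% in the control libraries, values that did not overlap. Without Cd63, the other members summed to between 73.9 and 77.6 RPKM in the DHC libraries and between 66.5 and 74.5 RPKM in the control libraries, which overlapped.

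**Figure D1:**
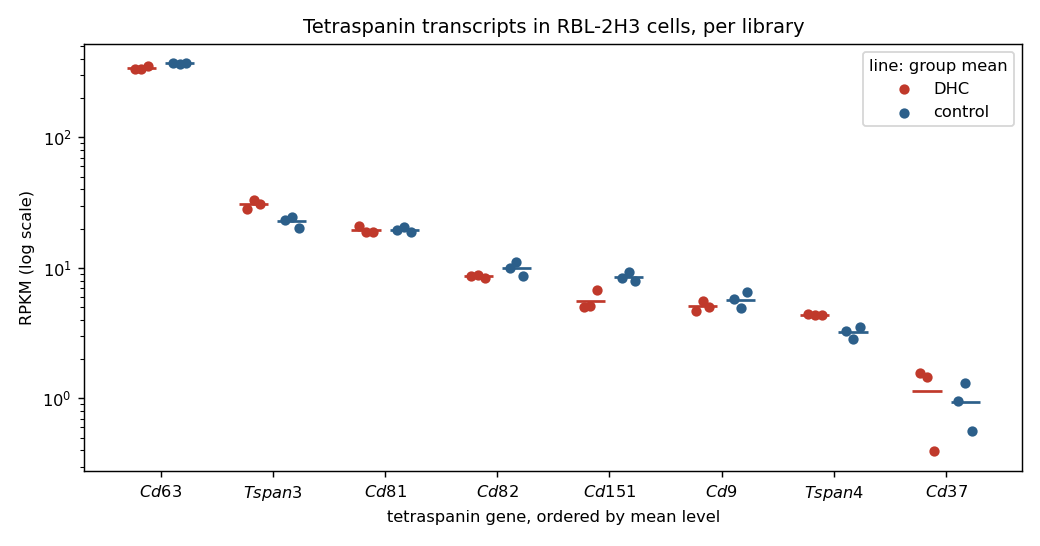
RPKM of each measured tetraspanin in every library, on a log axis, with DHC libraries in red to the left of control libraries in blue and a line at each group mean. Cd63 stands near 342 RPKM with DHC and 369 RPKM in control, and every other member is at most at 33.4 RPKM.

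Tspan3, a widely expressed tetraspanin of the surface and endosomes that has been studied in human and mouse myeloid leukemia, rose with DHC. Its values were 28.5, 33.4 and 30.6 RPKM in the DHC libraries, against 23.5, 24.6 and 20.4 RPKM in the control libraries. Every DHC library was above every control library. The mean of 30.8 ± 2.46 RPKM with DHC was 1.35 times the 22.8 ± 2.21 RPKM of control (SD, n = 3 each), with a log2 fold change of 0.42 ± 0.09 (SE, limma adjusted p = 0.00858). Tspan3 passed under every one of the 17 alternatives run, with log2 fold changes between 0.34 and 0.49. The gene lies on chromosome 8, 60806849 to 60830448, on the minus strand. In control libraries its values overlapped those of Cd81, the next lower member, and in DHC libraries they did not.

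Tspan4, known for its part in migrasomes (vesicles on the retraction fibres of migrating cells), also rose. It had 4.47, 4.33 and 4.36 RPKM in the DHC libraries, against 3.27, 2.88 and 3.53 RPKM in the control libraries. The groups did not overlap, and the DHC libraries were close to one another. The log2 fold change was 0.35 ± 0.09 (SE, limma adjusted p = 0.0206) and the ratio of means 1.36. This call is less firm than that of Tspan3. It ended without DHC replicate 1 (limma adjusted p = 0.0529), DHC replicate 2 (0.0605), DHC replicate 3 (0.0558) or control replicate 2 (0.069), and with no filter on low values (0.0502).

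Cd151, a tetraspanin that binds the laminin-binding integrins, was the member that fell. It had 5.02, 5.09 and 6.73 RPKM in the DHC libraries, against 8.32, 9.24 and 7.88 RPKM in the control libraries. All DHC values were lower, and DHC replicate 3 stood nearest to control. The means were 5.61 ± 0.965 RPKM with DHC and 8.48 ± 0.696 RPKM in control (SD, n = 3 each), 1.51-fold lower, with a log2 fold change of −0.53 ± 0.11 (SE, limma adjusted p = 0.0107). The call held when any 1 library was left out, with log2 fold changes between −0.64 and −0.46. The second principal component, with 12.8% of the variance, separated DHC replicate 1 and control replicate 1 from the other libraries. Without both of them, Tspan3 remained past the threshold (0.49, limma adjusted p = 0.0199), while Cd151 (−0.48, 0.0598) and Tspan4 (0.35, 0.0808) did not.

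Cd151 and Tspan4, which moved in opposite directions, are neighbours on the plus strand of chromosome 1. Cd151 spans 214009784 to 214013765 and Tspan4 214016897 to 214038723, with 3131 bases between them. The ratio of Tspan4 to Cd151 RPKM was 0.891, 0.851 and 0.648 in the DHC libraries and 0.393, 0.311 and 0.448 in the control libraries. Each gene shares exon bases with a gene on the opposite strand, and no source used here says whether reads were counted by strand, so reads of overlapping genes cannot be told apart there. Cd151 shares 15 bases, 0.74% of its exon length, with AABR07006025.2. That gene, with 276 exon bases, had 1.83, 2.43 and 3.85 RPKM with DHC against 6.05, 4.98 and 5.09 RPKM in control (log2 fold change −0.82, limma adjusted p = 0.014). Its values rest on few reads, 15, 21 and 31 with DHC and 51, 40 and 48 in control. Tspan4 shares 279 bases, 7.78% of its exon length, with LOC100911840. That gene had 10.2, 10.2 and 8.99 RPKM with DHC against 8.49, 6.68 and 8.40 RPKM in control (0.29, limma adjusted p = 0.0603). Both opposite-strand genes, shown for their position, therefore had the sign of the member they overlap, and the part of shared reads in the members' changes was not tested.

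**Figure D2:**
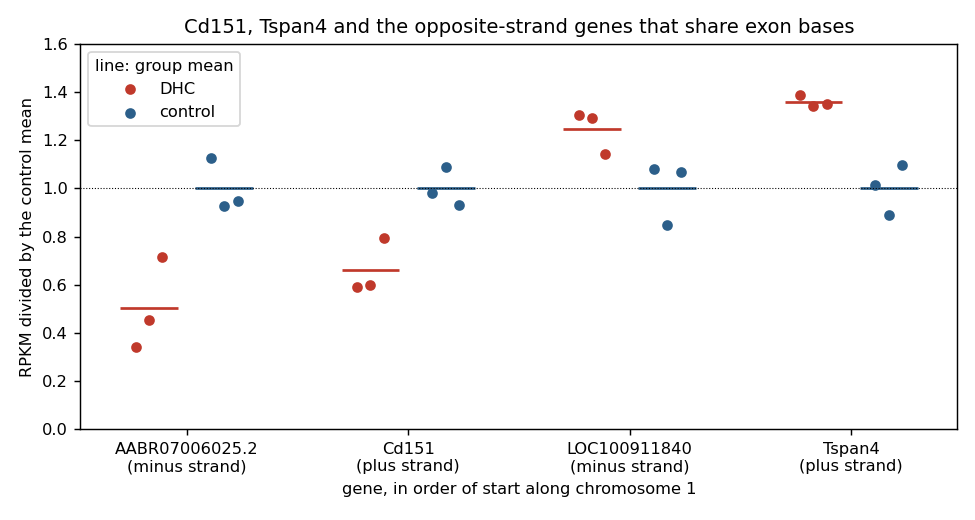
RPKM divided by the gene's control mean for Cd151, Tspan4 and the genes on the opposite strand that share exon bases with them, with 1 point per library, DHC in red to the left of control in blue, and lines at group means. Cd151 and AABR07006025.2 are below control in all 3 DHC libraries, and Tspan4 and LOC100911840 are above it.

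Cd81, a common marker of released vesicles, was the member with the smallest difference. It had 20.9, 18.8 and 18.7 RPKM in the DHC libraries, against 19.7, 20.4 and 19.0 RPKM in the control libraries. The groups overlapped, and the log2 fold change was −0.01 (95% interval −0.16 to 0.13, limma adjusted p = 0.88), with a sign that changed when single libraries were left out. Cd81 lies on chromosome 1, 216237697 to 216253311, inside the annotated span of Cttn without shared exon bases, and Tspan32, another tetraspanin gene, is its left neighbour at a distance of 31496 bases.

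Cd82, known as a suppressor of metastasis, had 8.73, 8.90 and 8.35 RPKM in the DHC libraries, against 10.1, 11.1 and 8.63 RPKM in the control libraries. The lowest control library fell within the DHC range, so the groups overlapped. Its log2 fold change was −0.17 (95% interval −0.39 to 0.04, limma adjusted p = 0.185). Cd9, which acts in sperm and egg fusion and marks released vesicles, had 4.69, 5.55 and 4.99 RPKM in the DHC libraries, against 5.74, 4.90 and 6.52 RPKM in the control libraries. Its values also overlapped, with a log2 fold change of −0.14 (95% interval −0.39 to 0.11, limma adjusted p = 0.351). For both genes the interval reaches −0.39 at its lower end, so the test does not show that they were unchanged. Single libraries also moved both values. That of Cd9 was −0.06 without control replicate 3 and −0.23 without control replicate 2, and that of Cd82 was −0.26 without control replicate 3 and −0.10 without control replicate 2.

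Cd37, a tetraspanin restricted to leukocytes and highest in B cells, had the lowest level of the members. It had 61, 60 and 15 reads in the DHC libraries, against 38, 50 and 25 reads in the control libraries. These reads correspond to 1.57, 1.46 and 0.392 RPKM with DHC and to 0.949, 1.31 and 0.558 RPKM in control. DHC replicate 3 held the lowest value and DHC replicate 1 the highest, so the spread within the DHC group covered the control group. The log2 fold change was 0.11 (95% interval −0.50 to 0.72, limma adjusted p = 0.778), and its mean of 1.04 RPKM over all libraries lay just above the filter of 1 RPKM. Without DHC replicate 1, DHC replicate 2 or control replicate 2 it fell below that filter and was not tested. Cd37 lies on chromosome 1, 101230533 to 101236065, Cd82 on chromosome 3, 82324354 to 82368357, and Cd9 on chromosome 4, 157977162 to 158010166.

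By mean RPKM the order in DHC libraries was Cd63, Tspan3, Cd81, Cd82, Cd151, Cd9, Tspan4 and Cd37, and in control libraries it was the same. Neighbours in this order whose library values overlapped were Cd151 and Cd9 with DHC, and Tspan3 and Cd81, and Cd82 and Cd151, in control. The values of the 3 DHC and 3 control libraries did not overlap for 4 members, Cd63, Cd151, Tspan3 and Tspan4. Such a separation of the groups was seen for 49.7% of all genes tested.

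**Figure D3:**
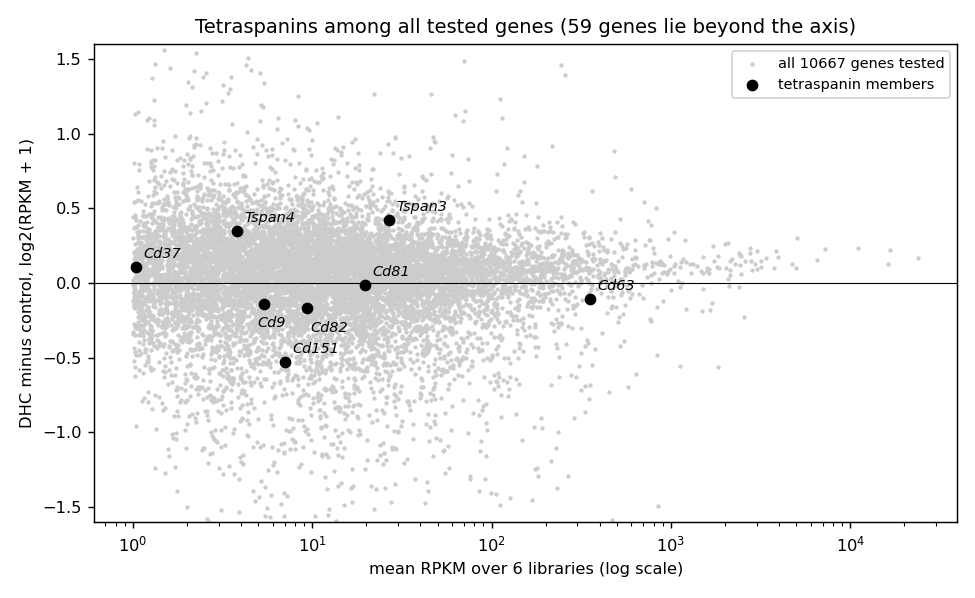
Change with DHC on the log2(RPKM + 1) scale against mean RPKM over the 6 libraries on a log axis, with grey points for all 10667 genes tested, of which 59 lie beyond the vertical axis, and black points for the 8 members. The members lie between −0.53 (Cd151) and 0.42 (Tspan3), inside the cloud of all genes.

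Of 23 other tetraspanin genes listed, 15 had a row and 9 were tested, of which 1 rose and 1 fell, and the median log2 fold change was −0.03. That is 22.2% past the threshold, where 34.5% of all genes tested passed. Tspan15, one of the tetraspanins that guide the protease ADAM10 to its substrates, had 41, 82 and 70 reads in the DHC libraries, against 4, 2 and 14 reads in the control libraries. This corresponds to 1.57, 2.98 and 2.73 RPKM with DHC and to 0.149, 0.0782 and 0.466 RPKM in control (log2 fold change 1.46 ± 0.20, SE, limma adjusted p = 0.00157). The groups lie far apart, but Tspan15 passed the filter on low values only through its DHC libraries, it fell below that filter without DHC replicate 2, and its size depends on the pseudocount (3.06 with 0.1 instead of 1). Tspan33, of the same ADAM10-guiding group and the second most abundant tetraspanin of this list, had 18.3, 18.7 and 19.9 RPKM in the DHC libraries, against 21.4, 21.8 and 22.8 RPKM in the control libraries. It fell by 0.21 on the log2 scale (limma adjusted p = 0.028), a call that ended without DHC replicate 1 (0.0687), DHC replicate 2 (0.0922), control replicate 2 (0.0726) or control replicate 3 (0.0891), and without both libraries numbered 1 (0.0591). Tspan13 and Tspan32 were at means of 20.9 and 9.15 RPKM with DHC and of 21.4 and 8.13 RPKM in control, and neither passed (limma adjusted p = 0.812 and 0.229). Adam10 itself was at 32.6 ± 2.14 RPKM with DHC and 37.3 ± 2.01 RPKM in control, and did not pass (limma adjusted p = 0.0595, named after its values were seen).

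**Figure D4:**
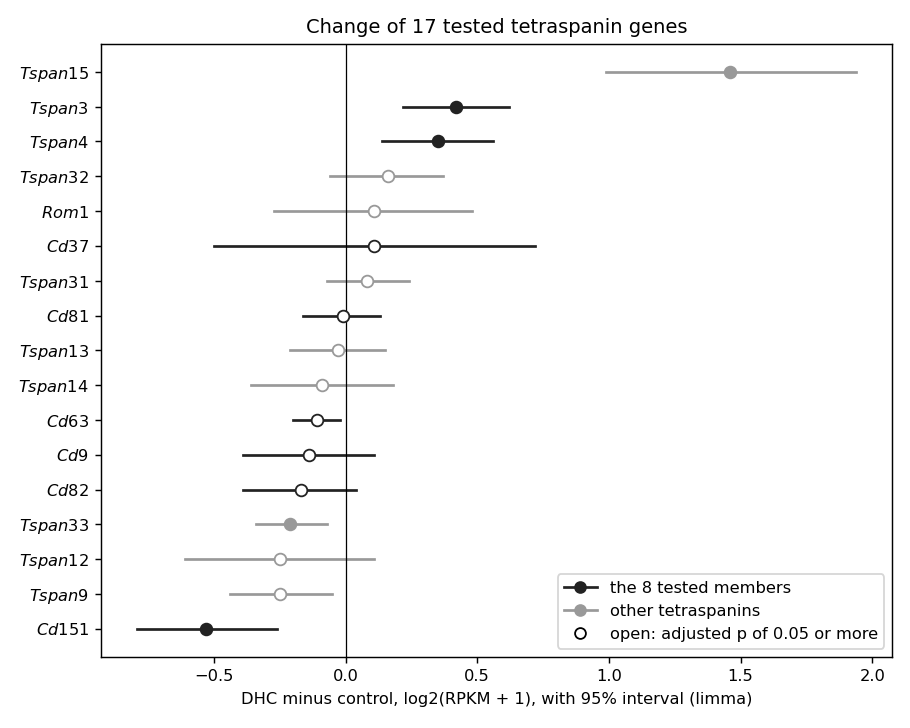
Log2 fold change with its 95% interval for the 8 members in black and the 9 other tested tetraspanins in grey, where filled points passed the threshold and open points did not. Tspan15 stands at 1.46, and the other 16 lie between −0.53 and 0.42.

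The proteins that tetraspanins gather, or that sit beside them in mast cells, were listed as partners. Of 26 partner genes 18 were tested, 6 fell and 1 rose, with a median log2 fold change of −0.11. The share that passed, 38.9%, is near the 34.5% of all genes tested, of which 16.1% fell and 18.4% rose. With trimmed-mean scaling 8 partner genes fell and 0 rose, and over all 10667 genes tested 2114 fell and 1285 rose. Among the integrin genes, Itga6, whose product is a direct partner of CD151, was at 5.25 ± 0.475 RPKM with DHC and 7.78 ± 0.465 RPKM in control (log2 fold change −0.49, limma adjusted p = 0.00412). Itga4 fell to 8.08 ± 0.521 RPKM with DHC, against 14.3 ± 0.465 RPKM in control, and Itga5 to 2.95 ± 0.115 RPKM with DHC, against 5.05 ± 0.382 RPKM in control (SD, n = 3 each). Itgb1, the shared beta chain and the most abundant integrin gene listed, was at 54.7 ± 1.15 RPKM with DHC and 59.1 ± 1.68 RPKM in control and did not pass (−0.11, limma adjusted p = 0.0959). Itgb2 did not pass either (−0.10, limma adjusted p = 0.394), and both were named after their values were seen. Ptgfrn, an immunoglobulin-family protein that binds CD9 and CD81 directly, fell to 22.4 ± 0.413 RPKM with DHC, against 28.3 ± 1.48 RPKM in control (−0.32, limma adjusted p = 0.00385). Igsf8, another immunoglobulin-family gene listed, was at 7.52 ± 1.51 RPKM with DHC and 6.45 ± 0.872 RPKM in control. It did not pass (0.19, limma adjusted p = 0.342) and was named after its values were seen. The adhesion receptor gene Cd44 fell 1.67-fold and Kit, the stem cell factor receptor gene, 1.78-fold. Sdcbp encodes syntenin, the adaptor that binds the tail of CD63, and had 149 ± 6.59 RPKM with DHC and 150 ± 15.3 RPKM in control (95% interval of the log2 fold change −0.17 to 0.17). Ms4a2, the beta chain of the IgE receptor, was the partner that rose (0.20, limma adjusted p = 0.0166). Its call ended with trimmed-mean (0.0763) and median-of-ratios scaling (0.0608) and without DHC replicate 2 (0.0605), DHC replicate 3 (0.0591) or control replicate 2 (0.0623).

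Tetraspanins mark vesicles that form in endosomes with the ESCRT machinery. Of 24 vesicle and ESCRT genes 21 were tested, of which 10 fell and 1 rose, with a median log2 fold change of −0.10. That is 52.4% past the threshold, where 34.5% of all genes tested passed, 16.1% lower and 18.4% higher. With trimmed-mean scaling 12 of these genes fell and 1 rose, and over all genes 2114 fell and 1285 rose. Flot1, a membrane scaffold protein gene, fell to 39.5 ± 2.69 RPKM with DHC, against 78.8 ± 2.23 RPKM in control (log2 fold change −0.98, limma adjusted p = 3.3e-05). Rab27a and Rab27b, the GTPases that dock secretory organelles, fell 1.58-fold and 1.44-fold. Vps37b and Stam, both of the ESCRT machinery, fell 1.41-fold and 1.42-fold, and Anxa2, a membrane-binding annexin gene, 1.29-fold. Other genes of the ESCRT machinery, named after their values were seen, differed. Tsg101 fell (−0.26, limma adjusted p = 0.00608), while Stam2 (0.03, 0.812), Hgs (0.02, 0.81), Vps28 (−0.10, 0.318) and Vps37c (0.22, 0.132) did not pass. Chmp2a, an ESCRT-III subunit gene, rose to 109 ± 8.96 RPKM with DHC, against 87.2 ± 5.83 RPKM in control (0.32, limma adjusted p = 0.0128). Chmp5 was at 162 ± 4.26 RPKM with DHC and 148 ± 4.96 RPKM in control and did not pass (0.0548).

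CD63 reaches granules and lysosomes through sorting complexes that include AP-3, BLOC-1 and the HPS proteins. Of 25 genes of this sorting group 24 were tested, 6 rose and 5 fell, with a median log2 fold change of 0.08. That is 45.8% past the threshold, where 34.5% of all genes tested passed, 18.4% higher and 16.1% lower. Ap3b1, a large AP-3 subunit gene, rose to 27.4 ± 0.780 RPKM with DHC, against 21.9 ± 0.594 RPKM in control (0.31, limma adjusted p = 0.0033), and Hps6 rose 1.49-fold. The lysosome-related organelle GTPase genes Rab32 and Rab38 fell 1.62-fold and 1.78-fold, Bloc1s4 fell 1.72-fold and Vps18, a tethering complex subunit, 2.38-fold. Other subunits of these complexes, named after their values were seen, differed. Of BLOC-1, Bloc1s5 (0.43, limma adjusted p = 0.00564) and Bloc1s6 (0.44, 0.023) rose, Dtnbp1 fell (−0.26, 0.0388), and Bloc1s1 (0.0835) and Bloc1s2 (0.207) did not pass. Vps16 (0.00, limma adjusted p = 0.987) and Vps33a (0.15, 0.15) of the tethering complex did not pass. Of the other HPS genes listed, Hps5 rose (0.57, limma adjusted p = 0.00601), while Hps1 (0.17, 0.145), Hps3 (0.03, 0.889) and Hps4 (−0.09, 0.433) did not pass. Ap3d1 was at 180 ± 3.06 RPKM with DHC and 169 ± 7.88 RPKM in control, and Lamp1, the abundant lysosome membrane glycoprotein, at 85.8 ± 4.11 RPKM with DHC and 81.7 ± 1.87 RPKM in control, neither past the threshold (limma adjusted p = 0.169 and 0.308).

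The libraries held between 29190987 and 31299551 reads assigned to genes with DHC and between 29084976 and 34170922 in control. Mitochondrial genes took 3.91% to 4.14% of reads with DHC and 3.34% to 3.53% in control, and the 10 genes with the most reads in each library took 7.72% to 8.08% with DHC and 6.79% to 7.24% in control. Neither share overlapped between the groups, and their part in the tetraspanin values was not tested. Of 8 mast cell and basophil markers 7 had a mean of at least 1 RPKM, with Tpsb2 at 0 in all DHC libraries and at most 0.0505 RPKM in control. The sum of the 8 markers was between 690 and 716 RPKM with DHC and between 974 and 999 RPKM in control. The largest part of that gap is Gata2, a transcription factor gene, which was at 69.9 ± 1.90 RPKM with DHC and 345 ± 10.3 RPKM in control (SD, n = 3 each). Within the sum, a fall of Kit (64.45 RPKM with DHC, 114.7 in control) was offset by a rise of Ms4a2 (368.5 with DHC, 320.9 in control). Of the 7 markers tested, Gata2, Kit and Hdc fell, Ms4a2 rose, and Fcer1a, Fcer1g and Cpa3 did not pass. That is 57.1% past the threshold, where 34.5% of all genes tested passed, 16.1% lower and 18.4% higher. Summed platelet markers, mostly Pf4, were between 978 and 1190 RPKM with DHC and between 940 and 1113 RPKM in control. The other marker sums were 40.6 to 43.8 RPKM with DHC and 31.8 to 37.5 RPKM in control for T cells (nearly all Cd3e), 20.6 to 23.5 and 22.6 to 24.5 RPKM for fibroblasts (nearly all Col3a1), 8.03 to 8.39 and 9.48 to 10.7 RPKM for endothelium (nearly all Tek), and at most 2.46 RPKM in every library for macrophages and epithelium. For B cells, with 2 of 4 listed markers having a row, the sum was at most 0.376 RPKM in every library. All libraries are of the RBL-2H3 line, and the larger of these sums rest mostly on single genes. Over all libraries the means were 0.0306 RPKM for Cd3d, 0.0897 for Cd3g, 0.0131 for Gp9, 0.0675 for Col1a1 and 17.05 for Itga2b. The sums are therefore no count of cell types, and their part in the tetraspanin values was not tested. In bulk RNA, fewer cells of a kind and less RNA per cell cannot be told apart.

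**Figure D5:**
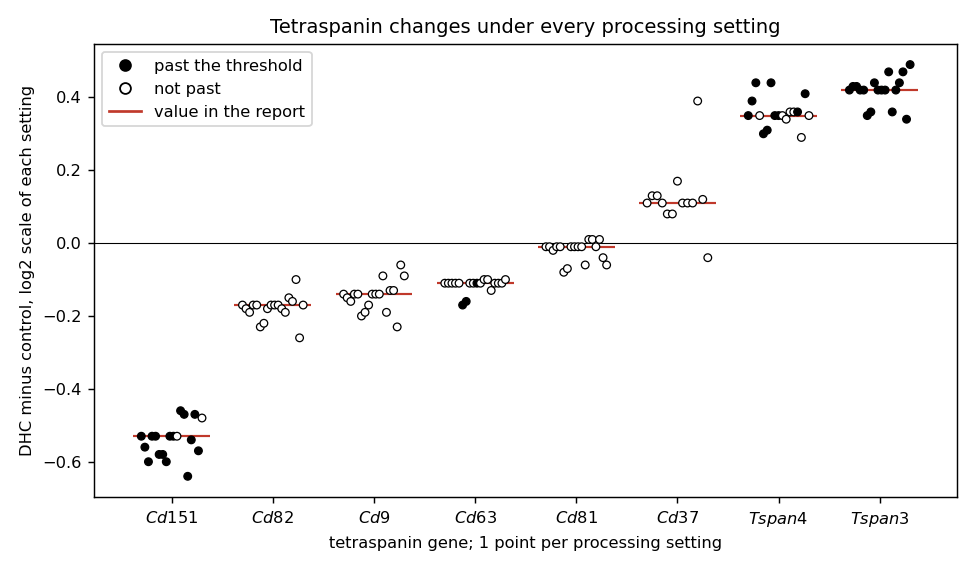
Change of each member on the log2 scale under every processing setting run, with 1 point per setting, filled where the member passed the threshold, and a red line at the value given in the text. Tspan3 is filled throughout, Cd151 and Tspan4 are filled in part, and Cd63 is filled in 3 alternatives.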

How the data were processed

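Total RNA of 6 RBL-2H3 libraries (3 DHC, 3 control, grouped by title) was extracted with Trizol and sequenced by Illumina protocols, per the labels. The submitters' processing notes name Trimmomatic 0.36, featureCounts, Subread 1.5.1, edgeR 3.12.1 and Rnor_6.0, while no source used here gives the aligner, annotation release or strand setting. The authors deposited 1 RPKM value per gene and library, scaled to library totals only. In each column, value times exon length was divided by a step fitted to that column. The result is a whole number of reads for 100% of values within 0.01 read, from which reads were recovered.

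limma 3.58.1 (R 4.3.3), with a trended variance, tested log2(RPKM + 1) for genes whose mean over all libraries reached 1 RPKM, group as the only term, two-sided, with Benjamini-Hochberg adjustment and a threshold of 0.05. Fold changes on this scale understate changes of low genes, and N-fold values divide mean RPKM. Simulated reads were used to test the method. Chi-square per degree of freedom between replicate libraries was 4.52 to 15.9, above the sampling noise of read counts. Each library was counted as its own sample, but this spread cannot show that libraries stem from separate cultures. Alternatives were other pseudocounts, filters, trimmed-mean and median-of-ratios scaling, limma-voom on the recovered reads, robust variances, a replicate block, a stricter threshold and leaving out libraries. Members and gene lists were chosen with earlier results of these data known. Named genes were the members, other tetraspanins past the threshold or among the 3 most abundant, and in each further list up to 6 with the lowest p and 2 more of highest level.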

Additional observations from a re-analysis of the deposited data

How the results depend on the processing

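For the 8 members, 114 of 130 values under alternatives kept their direction and side of the threshold. The count of members past the threshold was 4 with either other scaling and with the replicate block, 2 with no filter or a filter of 5 RPKM, 1 at an adjusted p of 0.01, and between 1 and 3 when libraries were left out (1 without both libraries numbered 1, an alternative chosen after seeing the data). Signs reversed for Cd37 (−0.04 without control replicate 3, with a range over left-out libraries of −0.04 to 0.39), for Cd81 (0.01 without DHC replicate 2, DHC replicate 3 or control replicate 2, range −0.06 to 0.01) and for Tspan13 (0.02 without DHC replicate 1, 0.03 without control replicate 1, 0.08 without both libraries numbered 1, range −0.08 to 0.08). Of the other tetraspanins, 1 passed with a filter of 5 RPKM, 1 at an adjusted p of 0.01, and between 0 and 2 with libraries left out. The 0, without DHC replicate 2, is by limma, with 1 gene at an unadjusted p under 0.05. At an adjusted p of 0.01, 1949 genes and 7 vesicle and ESCRT genes passed, and with the filter of 5 RPKM 7 sorting genes did. A stricter threshold and fewer genes tested are those alternatives' construction, and for the other changes the cause was not tested.

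The labels do not say that replicate numbers pair the libraries, and same-numbered libraries did not deviate together in every pair, with r = 0.228, −0.0495 and 0.0828 for numbers 1, 2 and 3. As a hint of pairing from the data, scores on the second principal component were 11.5 (DHC) and 12.1 (control) for number 1, −2.15 and −2.49 for number 2, and −8.35 and −10.7 for number 3. Not every library correlated best with its own number, since DHC replicate 2 and control replicate 3, and DHC replicate 3 and control replicate 2, each had r = 0.106. With a replicate block 4333 genes passed instead of 3685, and Cd63 passed (−0.11, limma adjusted p = 0.0282). Cd37 rests on as few as 15 reads in a library.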
